A study of Danio rerio with 24 samples.

Results

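TP-0903, a small-molecule inhibitor of several kinases, was added to zebrafish embryos at 13 hpf (hours post fertilization), when they had 8 somites, and whole embryos were collected 1 h or 4 h later. The data described here are the change in the transcriptome of treated embryos between those collections. The TP-0903 4 h group (17 hpf, 16 somites, 4 libraries) was set against the TP-0903 1 h group (14 hpf, 10 somites, 4 libraries), which is 8 of the 24 libraries of the series. Members were chosen by treatment and time alone. The same change in embryos given DMSO, the solvent, at the same times (DMSO 4 h and DMSO 1 h, 4 libraries each) served as the reference for what treated embryos did. All groups carried the label Tg(snail1b:GFP), a line in which 3 kb of the snai1b promoter drives GFP, and all were kept at 28 °C. The methods state 35 embryos per treatment and 4 biological replicates per condition, so each library is an average over pooled whole embryos and p-values measure the spread between such pools. The dose used for sequencing was not given in the sources used here.

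Somites, the blocks that give rise to muscle, cartilage and dermis, are cut off in order from the presomitic mesoderm, which is itself fed by progenitors in the tailbud. At these stages the older somites start to make contractile proteins under MyoD-family transcription factors, the notochord lays down its collagen sheath, primitive blood and vessels form from lateral mesoderm, and the first neurons differentiate. Retinoic acid, made in the trunk mesoderm and destroyed in the head and tailbud, is read by nuclear receptors that act on Hox genes and on the genes of its own metabolism.

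Levels are given in CPM, the reads of a gene per 1000000 reads of a library after scaling between libraries. The unit allows a gene to be compared between libraries but not with a longer or shorter gene. Totals of assigned reads were 5511206 to 9568733 in TP-0903 4 h libraries and 5254559 to 10536420 in TP-0903 1 h libraries. Markers of muscle, notochord, neural tube, neural crest, epidermis, blood, endothelium, heart, pronephros, hatching gland and macrophages were all present in every library of both groups. The TP-0903 1 h libraries were not alike. The first principal component of their deviations held 79.9% of the variance within the group and separated libraries 1 and 3 from libraries 2 and 4, with library 3 farthest from the group mean. In DMSO 1 h embryos, library 4 stood apart. Its deviations went with those of TP-0903 1 h libraries 3 and 1 (Pearson's r of 0.82 and 0.49). They went against those of TP-0903 1 h libraries 2 and 4 (−0.78 and −0.75), and the cause was not tested. The part of these libraries in each result was measured by leaving them out. For atp2a1 at 4 h, the order that treated embryos showed, libraries 1 and 2 above 3 and 4, was also present in DMSO 4 h embryos, with 246.5, 279.5, 114.7 and 121.7 CPM for this calcium pump gene. The 1 h and 4 h libraries were also counted in separate tables, so age of the embryo, length of exposure and table cannot be told apart in this comparison.

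In treated embryos, 1262 genes rose and 653 fell between 1 h and 4 h, at an adjusted p under 0.05 in edgeR's quasi-likelihood test. The 1915 genes were 12.0% of the 15898 tested, and the background shares were 7.94% for a rise and 4.11% for a fall. Their median change was 1.09 on the log2 scale in absolute terms, 1056 genes changed by at least 1, and the median over all genes was −0.02. Without TP-0903 1 h libraries 1 and 3 the count was 6376 (3476 higher and 2900 lower), of which 1817 were among the 1915. These libraries were chosen after their deviations were seen. The 1 h libraries kept, 2 and 4, were the most alike of the group (Pearson's r of 0.992 in log2 CPM, other pairs 0.940 to 0.981). The 1 h spread in that fit was therefore small, so its counts and p-values, here and below, are likely too favourable. Leaving out 4 h library 1 gave 1072 genes (806 higher and 266 lower), and leaving out 4 h library 2 gave 1162 (885 higher and 277 lower). Lower calls were the less stable: any single library left out, other than 1 h libraries 1 and 3, brought them to between 266 and 411, and 1 h library 3 left out brought them to 1143. The genes were then read program by program, in 30 lists of known developmental genes. These lists were written with earlier results of these data known, so their shares beside those of all genes are a description and not a test.

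**Figure D1:**
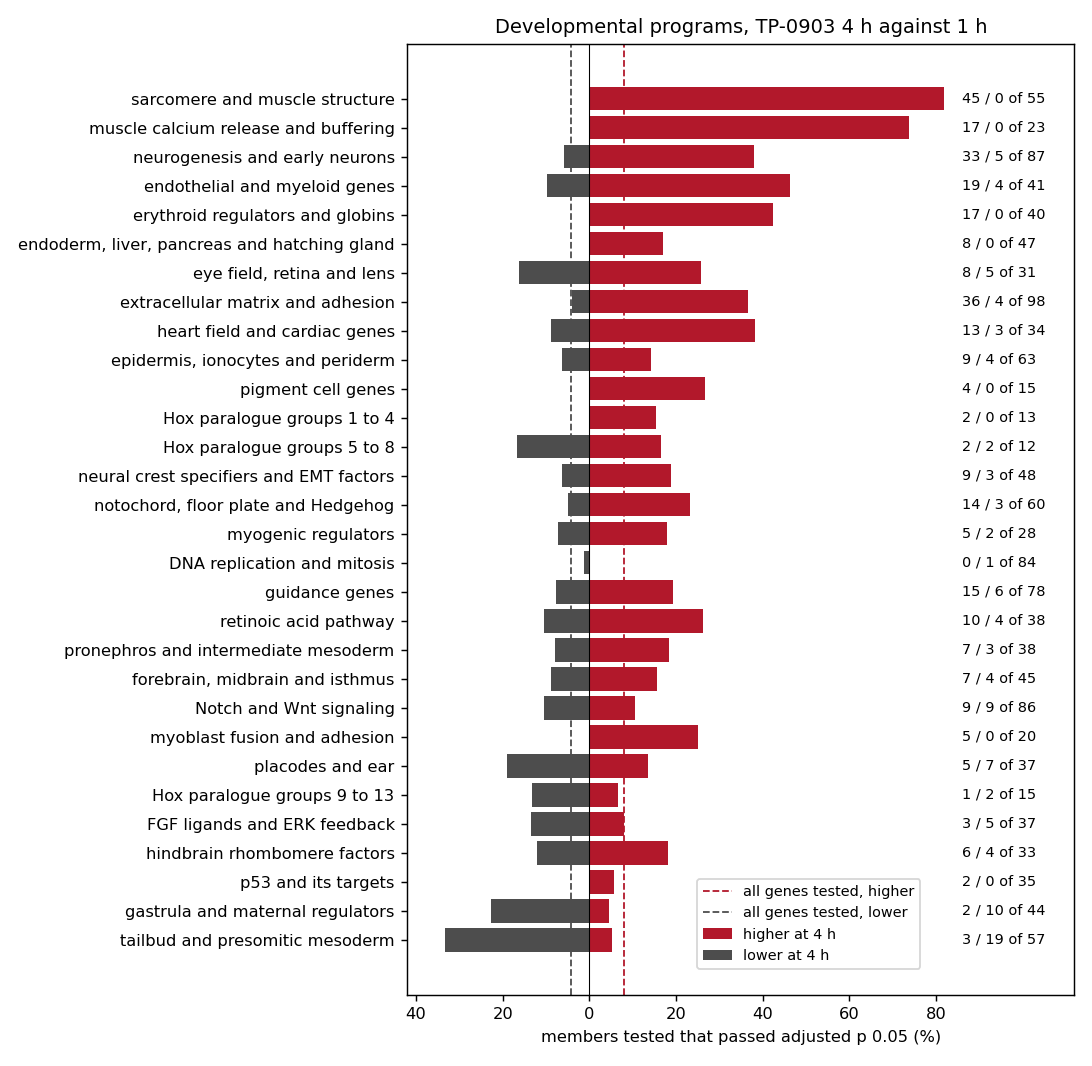
Share of the members tested in each of 30 developmental gene lists that were higher (red, to the right) or lower (grey, to the left) in TP-0903 4 h than in TP-0903 1 h embryos, in percent, with lists ordered by median log2 fold change. Dashed lines are the shares over all genes tested (7.94% higher and 4.11% lower), and the counts at the right give members higher / lower of members tested, from 45 / 0 of 55 for the sarcomere to 3 / 19 of 57 for the tailbud.

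**Figure D2:**
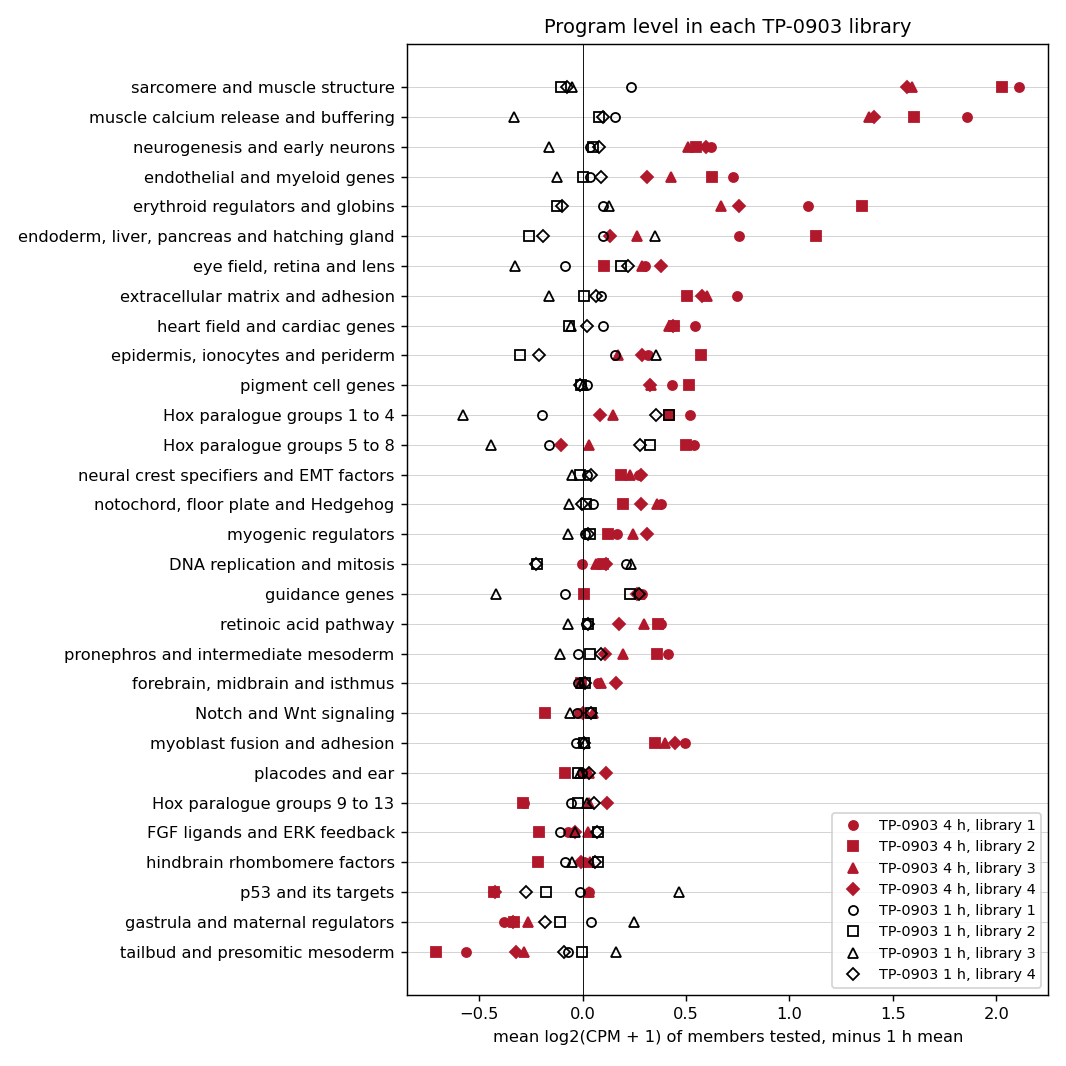
Mean log2(CPM + 1) of the members tested in each list, per TP-0903 library, relative to the mean of the 1 h libraries. Filled red symbols are the 4 h libraries and open symbols the 1 h libraries. The sarcomere list sat between 1.57 and 2.11 in the 4 h libraries and between −0.11 and 0.23 in the 1 h libraries, whereas the 1 h libraries 1 and 3 parted from 2 and 4 in the lists for Hox groups 1 to 8, epidermis and DNA replication.

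Muscle differentiation gave the highest share of rises and the highest median of the 30 lists. Of 55 sarcomere and muscle structure genes tested, 45 rose and 0 fell, a share of 81.8% where all genes gave 7.94%, and the list's median change was 1.91. The fast muscle regulatory light chain gene mylpfa had 42.4, 49.2, 20.7 and 20.6 CPM at 4 h, against 0.697, 0.906, 0.904 and 0 CPM at 1 h, a log2 fold change of 5.57 ± 0.49 (SE; adjusted p = 0.000222). The alkali light chain gene myl1 had 43.0, 44.3, 28.4 and 27.1 CPM at 4 h, against 1.86, 0.566, 0.402 and 0.716 CPM at 1 h (5.31 ± 0.38). All 4 h libraries of both genes, named for their large changes, lay above all 1 h libraries. Within the 4 h group, libraries 1 and 2 lay above libraries 3 and 4. Troponin C gene tnnc1b stood at 6.23 to 15.5 CPM against 0 to 0.358 CPM (5.49 ± 0.55). Fast myosin heavy chain reads were close to absent at 1 h. For myhz1.3 there were 149, 278, 35 and 44 reads in the 4 h libraries and 1, 0, 0 and 0 in the 1 h libraries, a depth-adjusted ratio of 576 (exact 95% counting interval 103 to 22800). myhz2, too low to be tested, had 31 reads at 4 h and 0 at 1 h, at least 11.8-fold higher against a floor of 3 reads over the group. Fast myosin genes lie in a cluster of near-identical copies. The methods state that repetitive alignments were discarded, so reads that fit several copies may be missing from these counts.

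The genes that release and buffer calcium rose with the filaments, with a median of 1.85. Of 23 tested, 17 rose (73.9%, where all genes gave 7.94%) and none fell. The sarcoplasmic reticulum calcium pump gene atp2a1 had 284, 235, 132 and 108 CPM at 4 h, against 6.501, 3.17, 1.105 and 5.01 CPM at 1 h, a log2 fold change of 5.62 ± 0.51 (adjusted p = 0.000222). Every 4 h library lay far above every 1 h library, though a rule that named this gene required no overlap. Again libraries 1 and 2 lay above 3 and 4. Sarcalumenin (srl, 3.35 ± 0.31) and calsequestrin (casq2, 3.28 ± 0.29) hold calcium inside the reticulum, and junctophilin (jph2, 3.05 ± 0.28) ties that reticulum to the surface membrane. Each of these 3, named for their large changes, rose with no overlap between 4 h and 1 h libraries. The share of all genes without such overlap is not given here, so a lack of overlap is description only.

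Among the 28 myogenic regulators, 5 rose and 2 fell (17.9% and 7.14%, where all genes gave 7.94% and 4.11%). The change was concentrated in a few members, and the list's median was 0.14. Myogenin (myog, ENSDARG00000009438), the factor that commits myoblasts to terminal differentiation, had 96.8, 111, 80.3 and 81.6 CPM at 4 h, against 13.3, 5.21, 11.4 and 6.802 CPM at 1 h (3.32 ± 0.28, adjusted p = 0.000222). mef2cb, a MADS-box partner of the MyoD family, rose by 1.37 ± 0.26. The members that fell, msgn1 and tbx6l, are factors of undifferentiated presomitic mesoderm. Genes of myoblast fusion and adhesion gave 5 rises and no falls of 20 (25.0% and 0%). The fusogen gene mymk, named tmem8c in the files, had 16.8, 21.3, 10.7 and 10.4 CPM at 4 h, against 0.232, 0.227, 1.00 and 0.179 CPM at 1 h (5.0 ± 0.46, adjusted p = 0.000224). M-cadherin (cdh15, 2.49 ± 0.22) and jam2a (2.47 ± 0.20), which bring myoblasts into contact, rose with it, and so did CCDC141 (2 of 2) at 1.42 ± 0.21. Without 1 h libraries 1 and 3, 4 members of the fusion list also passed as lower.

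Presomitic and tailbud genes went the other way. Of 57 tested, 19 fell (33.3%, where all genes gave 4.11%) and 3 rose (5.26%, where all genes gave 7.94%). The median was −0.43. The rises numbered 5 without 1 h libraries 1 and 3 and 1 without 4 h library 1 or 2. The falls numbered 8 without 4 h library 1, 11 without 4 h library 2, 12 without 4 h library 3 and 22 without 1 h libraries 1 and 3. Mesogenin (msgn1), which starts the paraxial mesoderm program, had 16.6, 21.4, 32.6 and 44.3 CPM at 4 h, against 88.0, 72.9, 208 and 70.9 CPM at 1 h (−1.93 ± 0.40, adjusted p = 0.0123). Library 3 of the 1 h group was high, and without 1 h libraries 1 and 3 the change of msgn1 was −1.30 (adjusted p = 0.00814). nkx1.2la (ENSDARG00000006350), a homeobox gene of the caudal neural plate and tailbud, had 1.11, 1.93, 3.77 and 3.77 CPM at 4 h, against 14.3, 14.8, 39.1 and 17.0 CPM at 1 h (−2.96 ± 0.44, adjusted p = 0.00190). The T-box gene tbx6l fell by 1.69 ± 0.28 and the caudal gene cdx1a by 1.90 ± 0.36. Both records named wnt8a, a Wnt ligand of the tail organizer, fell, by 1.78 ± 0.35 and 1.72 ± 0.33. The records can share reads, so they are not independent of each other.

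**Figure D3:**
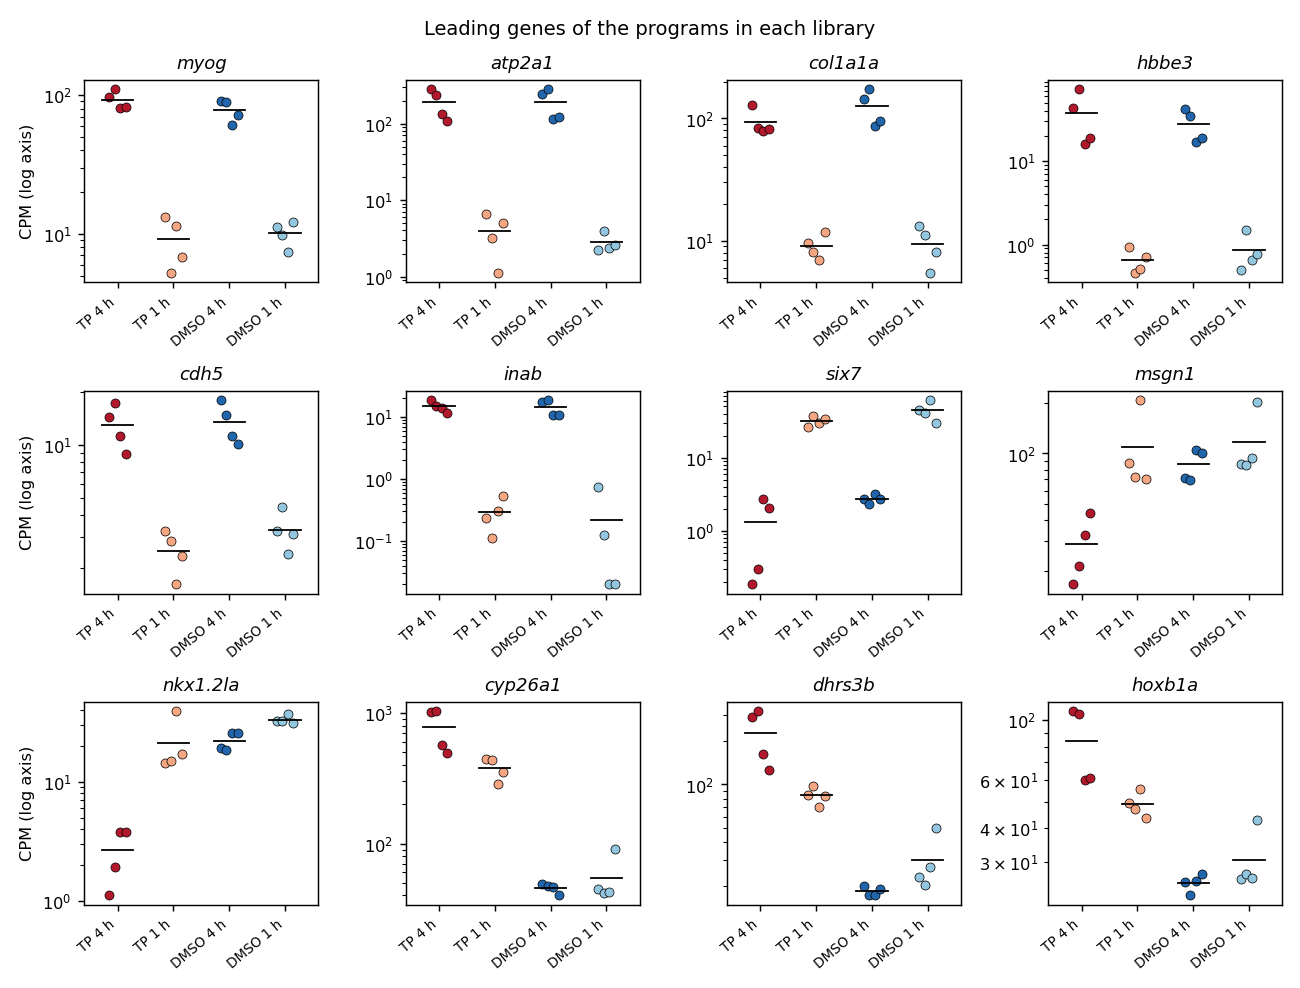
CPM of 12 leading genes in each library on log axes that differ between panels, for TP-0903 4 h, TP-0903 1 h, DMSO 4 h and DMSO 1 h, with 4 points per group and a black bar at the mean. Points for inab in 2 DMSO 1 h libraries with 0 reads were drawn at 0.02 CPM. For myog, the TP-0903 4 h libraries sat at 80.3 to 111 CPM and the TP-0903 1 h libraries at 5.21 to 13.3 CPM. For cyp26a1, every TP-0903 library of either time (287 to 1035 CPM) lay above every DMSO library (39.96 to 90.6 CPM).

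Matrix genes formed another group that rose. Of 98 extracellular matrix and adhesion genes, 36 rose and 4 fell, with a median of 0.33, and 8 fell without 1 h libraries 1 and 3 but 1 or 2 without 1 h library 2 or any 4 h library. The fibrillar collagen gene col1a1a had 129, 83.0, 79.7 and 82.2 CPM at 4 h, against 9.52, 8.15, 7.03 and 11.8 CPM at 1 h (3.37 ± 0.22, adjusted p = 0.000115). Its paralogue col1a1b stood at 29.9 to 72.8 CPM against 1.81 to 5.19 CPM (3.96 ± 0.39). The tenascin gene tnw (3.15 ± 0.35) and the proteoglycan gene vcanb (2.88 ± 0.38) rose as well. In the list for notochord, floor plate and Hedgehog genes, 14 of 60 rose and 3 fell (23.3% and 5.0%), with falls again near the share of all genes. Without 1 h libraries 1 and 3, 22 rose and 8 fell. Calymmin (cmn), a sheath component, had 256, 248, 162 and 175 CPM at 4 h, against 57.7, 37.4, 24.5 and 45.6 CPM at 1 h (2.35 ± 0.27, adjusted p = 0.000474). entpd5a, a nucleotidase of the sheath cells that later mineralize, rose by 2.62 ± 0.35. The type IX collagen genes col9a1 (2.15 ± 0.20) and col9a2 (1.63 ± 0.27), named for their large changes, rose with no overlap between 4 h and 1 h libraries. The falls numbered 1 without 4 h library 3.

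Blood and vessel genes rose in treated embryos. Of 40 erythroid genes, 17 rose and none fell (42.5%, median 0.52). Among 41 endothelial and myeloid genes, 19 rose and 4 fell (46.3% and 9.76%, median 0.54). Over all genes tested, 7.94% rose and 4.11% fell. The embryonic beta-globin gene hbbe3 had 43.9, 73.6, 16.2 and 19.1 CPM at 4 h, against 0.929, 0.453, 0.502 and 0.716 CPM at 1 h (5.87 ± 0.61, adjusted p = 0.000307). Alpha-globin hbae3 had 39.8, 57.1, 11.01 and 13.0 CPM, against 1.97, 0.566, 1.71 and 0.537 CPM (4.57 ± 0.65). The 4 h libraries of both genes, named for their large changes, split into 1 and 2 above 3 and 4. Neither gene overlapped between times, which a rule that named hbbe3 required. hbbe1.1 (5.27 ± 0.81) and hbae1 (5.14 ± 0.58) rose too. Globin genes are near-identical copies too, so reads that fit several of them may likewise have been discarded. In bulk RNA from whole embryos, more cells of a type and more RNA per cell cannot be told apart.

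VE-cadherin (cdh5), the junction protein of endothelium, had 14.4, 17.3, 11.3 and 8.84 CPM at 4 h, against 3.25, 2.83, 1.61 and 2.33 CPM at 1 h (2.36 ± 0.29, adjusted p = 0.000655). The vessel genes clec14a (2.39 ± 0.40), rasip1 (2.39 ± 0.63) and mrc1a (2.9 ± 0.76) rose with it. rasip1 did not pass without 1 h library 2 or either of 4 h libraries 1 and 2, nor did mrc1a without any one of these, 1 h library 1 or 1 h libraries 1 and 3. The endothelial rises numbered 11 without 4 h library 1. The members that fell were both records named lcp1, a leukocyte actin-bundling gene, with gata2a and efnb2a. In the heart list 13 of 34 rose and 3 fell (38.2% and 8.82%, where all genes gave 7.94% and 4.11%), with a median of 0.30. The ventricular myosin gene vmhc had 17.3, 13.5, 16.2 and 15.4 CPM at 4 h, against 1.28, 1.02, 0 and 1.43 CPM at 1 h (4.14 ± 0.48, adjusted p = 0.000544). popdc2 (2.94 ± 0.24), needed for cardiac conduction, and the thin-filament genes tnni1b (2.5 ± 0.30) and tnnt2a (1.89 ± 0.33) rose also. Atrial and ventricular light chain gene myl7 was too low to be tested, at 47 reads at 4 h and 0 at 1 h, at least 17.8-fold higher. The falls in the heart list (nkx2.7, tbx20 and fgf8a) numbered 1 without 1 h library 1 or any of the 4 h libraries, and 5 without 1 h library 3.

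Neuronal genes rose more often than they fell, 33 against 5 of 87 tested (37.9% and 5.75%, where all genes gave 7.94% and 4.11%). The list's median was 0.58. The falls were 3 without 4 h library 1 or 2, and 8 without 1 h libraries 1 and 3. The neuronal intermediate filament gene inab had 18.6, 14.9, 14.1 and 11.5 CPM at 4 h, against 0.232, 0.113, 0.301 and 0.537 CPM at 1 h (5.66 ± 0.33, adjusted p = 6.11e-05), which was the smallest p of the comparison. The synaptic fusion gene snap25a stood at 3.02 to 6.84 CPM against 0.179 to 0.566 CPM (3.79 ± 0.46). slc18a3a, the vesicular acetylcholine transporter that marks motor neurons, stood at 3.34 to 4.46 CPM against 0.179 to 0.581 CPM (3.19 ± 0.32). stmn2a, a tubulin regulator of growing axons, rose by 2.77 ± 0.31. These 4 genes, named for their large changes, did not overlap between times in any library. For inab, a lack of overlap was also required by a rule that named it.

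In the eye list 8 of 31 rose and 5 fell (25.8% and 16.1%, where all genes gave 7.94% and 4.11%). Both ends of the list were steep. six7 (ENSDARG00000070107), a homeobox gene of the early eye field and anterior neural plate, had 0.184, 0.297, 2.75 and 2.05 CPM at 4 h, against 26.4, 37.1, 29.3 and 33.6 CPM at 1 h. Its change of −4.47 ± 0.46 (adjusted p = 0.000307) was the largest fall among the genes named. mafa, a lens and somite bZIP factor, had 76.9, 54.6, 94.2 and 86.4 CPM at 4 h, against 14.4, 13.0, 7.44 and 19.1 CPM at 1 h (2.55 ± 0.28). mab21l1 (2.04 ± 0.27) and six6b (1.78 ± 0.31), both of the optic cup, rose. The rises in the list numbered 4 without 1 h library 1, 4 h library 1 or 4 h library 4 and 5 without 4 h library 2, and the falls 3 without 1 h library 4 or either of 4 h libraries 1 and 2.

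Forebrain, midbrain and isthmus genes passed in 7 of 45 cases as higher and 4 as lower (15.6% and 8.89%). Hindbrain factors did so in 6 and 4 of 33 (18.2% and 12.1%), where all genes gave 7.94% and 4.11%. dlx1a, a factor of ventral forebrain interneurons, stood at 1.40 to 2.17 CPM at 4 h against 0 to 0.348 CPM at 1 h (3.67 ± 0.64). arxa (1.51 ± 0.21) and zic4 (1.32 ± 0.18), factors of the ventral and dorsal forebrain, rose, while lhx1a fell by 1.14 ± 0.23. mafbb, a rhombomere factor, had 40.6, 49.2, 29.9 and 39.5 CPM at 4 h, against 9.87, 5.66, 10.2 and 9.13 CPM at 1 h (2.2 ± 0.22, adjusted p = 0.000269). egr2a (1.02 ± 0.20), which patterns rhombomeres, and gbx1 (0.97 ± 0.21, a call lost without 4 h library 1) rose, and gbx2, of the isthmus, fell by 0.83 ± 0.17. The forebrain counts went to 12 higher and 8 lower without 1 h libraries 1 and 3, and to 3 or 4 higher and 1 or 2 lower without 4 h library 1, 4 h library 2 or 1 h library 2. Without 4 h library 3, 2 forebrain genes fell. Hindbrain falls were 9 without 1 h libraries 1 and 3 but 1 or 2 without any single library other than those, and hindbrain rises were 2 without 4 h library 1.

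Neural crest and EMT factors (EMT, the epithelial-to-mesenchymal transition by which crest cells leave the neural tube) gave 9 rises and 3 falls of 48 (18.75% and 6.25%). Over all genes these shares were 7.94% and 4.11%. Without 1 h libraries 1 and 3 there were 17 rises and 5 falls. The falls numbered 1 without 4 h library 1 or 2. twist1a, a factor of crest mesenchyme, had 26.6, 24.1, 24.2 and 27.9 CPM at 4 h, against 12.0, 10.4, 10.2 and 11.8 CPM at 1 h (1.22 ± 0.13, adjusted p = 0.000394). Its rise under DMSO was 1.19 ± 0.21 (adjusted p = 0.00383 in edgeR). These are levels of whole embryos and do not show the level within crest cells. By in situ hybridization, the study saw twist1a almost lost from cranial crest under TP-0903. ednrab, an endothelin receptor of the crest, stood at 39.7 to 55.6 CPM against 5.53 to 20.1 CPM (1.96 ± 0.33), and tfap2b rose by 1.38 ± 0.30, a call lost without 4 h library 1. Of the crest genes that the study follows, dlx2a, sox10 and snai1b did not pass. dlx2a, a factor of ectomesenchyme, had 6.27, 7.88, 6.81 and 8.30 CPM at 4 h, against 4.41, 4.53, 6.03 and 4.83 CPM at 1 h (0.57 ± 0.19, adjusted p = 0.0812). The crest specifier sox10 stood at 42.1 to 60.8 CPM against 44.0 to 50.5 CPM (0.17 ± 0.14, adjusted p = 0.45). snai1b, the EMT factor whose promoter drives the transgene, stood at 5.71 to 9.97 CPM against 5.73 to 8.82 CPM (0.08 ± 0.22, adjusted p = 0.85). The libraries of sox10 and snai1b overlapped between times, and the change of snai1b lay between −0.04 and 0.22 in the fits that left out 1 library.

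Of 15 pigment genes, 4 rose and none fell (26.7% and 0%). At least 2 rose in each fit that left out 1 library, and 7 without 1 h libraries 1 and 3. tfec, a factor of early pigment progenitors that is also counted among the crest genes, had 12.9, 15.5, 9.42 and 8.94 CPM at 4 h, against 1.62, 2.15, 0.904 and 3.04 CPM at 1 h (2.65 ± 0.34, adjusted p = 0.000909). trpm1b (2.78 ± 0.55) and the melanosome gene pmela (1.25 ± 0.33) rose, and so did kita (0.48 ± 0.14, adjusted p = 0.0493), a receptor of melanoblasts whose p was close to the threshold. kita passed in none of the fits that left out 1 library other than 1 h library 1, and pmela did not pass without 1 h library 1 or 4 or any of the 4 h libraries. Placode and ear genes gave 5 rises and 7 falls of 37 (13.5% and 18.9%, where all genes gave 7.94% and 4.11%). The rises included otomp (2.77 ± 0.40) and oc90 (1.49 ± 0.16), whose products build the otoliths, and cxcl14 (1.88 ± 0.18), and foxj1b, a factor of motile cilia, fell by 1.52 ± 0.35, which did not pass without 4 h library 2 or 4. Without 1 h libraries 1 and 3 the placode counts were 8 and 11, and the falls were 4 without 4 h library 1 or 2.

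Kidney genes showed a few steep rises within a list whose median was 0.06. There were 7 rises and 3 falls of 38 (18.4% and 7.9%, where all genes gave 7.94% and 4.11%). slc12a3, the thiazide-sensitive cotransporter of the distal tubule, had 18.4, 17.9, 6.67 and 8.94 CPM at 4 h, against 0, 0.113, 0 and 0.537 CPM at 1 h (6.53 ± 0.68, adjusted p = 0.000323). atp1a1a.4, a sodium pump subunit, had 59.8, 72.6, 19.7 and 27.5 CPM, against 2.55, 2.72, 1.105 and 2.51 CPM (4.35 ± 0.48), and cdh17 rose by 2.06 ± 0.31. slc12a3 and atp1a1a.4, named for their large changes, stood higher in all 4 h libraries than in any 1 h library, which a rule that named slc12a3 required. Both were higher in 4 h libraries 1 and 2 than in 3 and 4. The counts were 11 and 9 without 1 h libraries 1 and 3.

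Of 47 endoderm, liver, pancreas and hatching gland genes, 8 rose (17.0%) and none fell, with a median of 0.48. All genes gave 7.94% for a rise and 4.11% for a fall. he2, a hatching enzyme, had 43.5, 40.6, 15.4 and 5.60 CPM at 4 h, against 0, 0.340, 0.101 and 0.537 CPM at 1 h (6.82 ± 0.88, adjusted p = 0.000945). The fibrinogen genes fga (2.80 ± 0.41) and fgb (2.59 ± 0.52), later made by liver, rose, as did tmprss2 (3.04 ± 0.48). Of 63 epidermis, ionocyte and periderm genes, 9 rose and 4 fell (14.3% and 6.35%), led by krt1-19d (3.50 ± 0.37), hbegfa (2.23 ± 0.38), atp1b1b (2.02 ± 0.29) and s100a10b (1.98 ± 0.34). Both lists overlapped between times in their mean by library, with 1 h libraries 1 and 3 above 1 h libraries 2 and 4. Without 1 h libraries 1 and 3, 19 endoderm genes and 33 epidermis genes rose. Leaving out 1 h library 3 alone gave 16 epidermal rises, and leaving out 1 h library 1 or any 4 h library gave 2 epidermal falls.

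Regulators of the gastrula declined. Of 44 tested, 10 fell and 2 rose (22.7% and 4.55%, where all genes gave 4.11% and 7.94%), with a median of −0.19. Rises numbered 5 without 1 h libraries 1 and 3, but 1 without 1 h library 1 or 4 or 4 h library 2 or 3. sizzled (szl), a secreted regulator of BMP activity, had 0.184, 0.149, 0.290 and 0.215 CPM at 4 h, against 4.29, 4.76, 5.53 and 3.04 CPM at 1 h (−4.29 ± 0.37, adjusted p = 0.000222). chd, the BMP antagonist chordin, had 10.7, 9.37, 21.4 and 17.8 CPM, against 70.7, 47.9, 74.3 and 45.5 CPM (−2.0 ± 0.28). pou5f3, a pluripotency factor, fell by 1.95 ± 0.28 and the ligand gene bmp7a by 1.80 ± 0.27. All 4 genes, named for their large changes, lay lower in each 4 h library than in any 1 h library, which a rule that named szl required. gsc, too low to be tested, had 2 reads at 4 h and 59 at 1 h, a depth-adjusted ratio of 25.9 for 1 h over 4 h (exact 95% counting interval 6.86 to 219).

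The Notch and Wnt list and the FGF list gave shares of rises near the 7.94% of all genes. Notch and Wnt genes gave 9 rises and 9 falls of 86 (10.47% each, where all genes gave 4.11% for a fall), and 18 and 22 without 1 h libraries 1 and 3. Each direction gave 5 without 4 h library 1. The secreted Wnt inhibitor frzb fell by 3.01 ± 0.45 and the receptor gene fzd8b by 1.48 ± 0.23, beside the wnt8a records above. FGF ligands and ERK feedback genes gave 3 rises and 5 falls of 37 (8.11% and 13.5%), and 6 rises and 13 falls without 1 h libraries 1 and 3. fgf10a (1.15 ± 0.23), myca (1.15 ± 0.14) and the co-receptor gene KLB (0.91 ± 0.23) rose, and the ERK phosphatase gene dusp2 fell by 2.52 ± 0.60. KLB did not pass without 1 h library 1 or 4 or 4 h library 1 or 2, nor did dusp2 without 4 h library 1, 3 or 4. FGF counts with single libraries left out were 2 falls without 4 h library 1, 3 without 4 h library 3 or 4, and 5 rises without 1 h library 3. Axon and cell guidance genes gave 15 rises and 6 falls of 78 (19.2% and 7.69%), both above the shares of all genes. They were led by sema3c (2.95 ± 0.26), sema3bl (1.76 ± 0.29), epha3 (1.67 ± 0.33) and ephb2b (1.42 ± 0.26). The rises were 6 to 8 without 4 h library 1, 4 h library 4 or 1 h library 1, and the falls 26 without 1 h libraries 1 and 3 but 2 or 3 without 1 h library 2 or 4 or any of 4 h libraries 1 to 3.

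DNA replication and mitosis genes stood out by their lack of calls, with 0 of 84 rising (all genes gave 7.94%) and CENPF falling by 0.78 ± 0.16. Their count changed most with the 1 h libraries. Without libraries 1 and 3, 42 rose and 5 fell. The mean of the list was 0.21 and 0.23 in 1 h libraries 1 and 3 and −0.22 and −0.23 in 1 h libraries 2 and 4, while the 4 h libraries lay between −0.003 and 0.11. Of 35 p53 target genes, which respond to cell stress, 2 rose (plk2b at 0.96 ± 0.26 and ccng2 at 0.80 ± 0.17) and none fell. These shares were 5.71% and 0%, where all genes gave 7.94% and 4.11%. Without 1 h libraries 1 and 3 there were 4 of each, without 1 h library 3 alone 2 fell, and the rises numbered 1 without 1 h library 1, 2 or 4 or 4 h library 1 or 2.

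Retinoic acid genes of degradation, storage, binding and reception changed in treated embryos. Of 38 tested, 10 rose and 4 fell (26.3% and 10.53%, where all genes gave 7.94% and 4.11%), with a median of 0.07. Falls numbered 9 without 1 h libraries 1 and 3, and 2 without 1 h library 2 or 4 or any of 4 h libraries 1 to 3. cyp26a1 (ENSDARG00000033999), the enzyme that degrades retinoic acid, had 1028, 1035, 568 and 494 CPM at 4 h, against 449, 435, 287 and 354 CPM at 1 h (1.04 ± 0.27, adjusted p = 0.0307). The retinaldehyde reductase genes dhrs3a and dhrs3b, which return retinal to retinol, behaved alike in direction. dhrs3a (ENSDARG00000044982) had 114, 138, 74.1 and 49.1 CPM at 4 h, against 23.8, 35.1, 20 and 25.4 CPM at 1 h (1.85 ± 0.31, adjusted p = 0.00389). dhrs3b (ENSDARG00000044803) had 293, 320, 163 and 126 CPM at 4 h, against 85.0, 98.3, 69.7 and 83.1 CPM at 1 h (1.43 ± 0.28, adjusted p = 0.00924). In each of these genes, named because the study follows them, all 4 h libraries lay above all 1 h libraries. Within the 4 h group, libraries 1 and 2 lay above 3 and 4.

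lrata, which esterifies retinol for storage, had 31.2, 46.7, 14.6 and 14.1 CPM at 4 h, against 1.97, 2.04, 3.42 and 1.61 CPM at 1 h (3.51 ± 0.44, adjusted p = 0.000874). The receptor gene rxrga had 42.8, 44.8, 35.1 and 28.4 CPM, against 17.5, 20.8, 10.2 and 15.8 CPM (1.24 ± 0.23, adjusted p = 0.00683). The retinol-binding genes went apart, rbp7b rising by 2.28 ± 0.28 while rbp7a fell by 2.09 ± 0.34. Without 1 h libraries 1 and 3 the changes were 0.99 for cyp26a1 (adjusted p = 0.0309), 1.62 for dhrs3a (adjusted p = 0.00936), 1.32 for dhrs3b (adjusted p = 0.0168) and 1.03 for rxrga (adjusted p = 0.00513). The call of cyp26a1 was lost when 4 h library 1, 4 h library 2 or 1 h library 4 was left out. On the deposited FPKM scale, which corrects for gene length, cyp26a1 averaged 407 at 4 h and 205 at 1 h, above dhrs3b (125 and 48.0), myog (65.1 and 6.57) and hoxb1a (54.4 and 32.7).

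Hox genes, whose paralogue groups are numbered from head to tail, passed in both directions. In groups 1 to 4, 2 of 13 rose and none fell (15.4% and 0%). In groups 5 to 8, 2 of 12 rose and 2 fell (16.7% each), and in groups 9 to 13, 1 of 15 rose and 2 fell (6.67% and 13.3%), where all genes gave 7.94% and 4.11%. hoxb8a had 70.5, 71.9, 31.0 and 30.4 CPM at 4 h, against 13.8, 12.8, 12.4 and 14.1 CPM at 1 h (1.94 ± 0.30, adjusted p = 0.00259), and hoxb8b rose by 1.53 ± 0.21. hoxb1a (ENSDARG00000008174), of rhombomere 4, had 108, 106, 60.4 and 61.3 CPM at 4 h, against 49.6, 47.0, 56.0 and 43.7 CPM at 1 h (0.77 ± 0.21, adjusted p = 0.0415). hoxb5b had 160, 134, 70.6 and 60.6 CPM at 4 h, against 45.5, 94.1, 33.2 and 80.5 CPM at 1 h, with overlapping libraries and an adjusted p of 0.228. hoxc1a (1.12 ± 0.32) and hoxb9a (0.61 ± 0.14) rose, while hoxc6a (−0.99 ± 0.27), hoxc6b (−0.83 ± 0.14), hoxd9a (−0.70 ± 0.20) and hoxd11a (−0.94 ± 0.24) fell. Apart from hoxb8a, hoxb8b and hoxc6b, these calls were each lost in some fit that left out 1 library. Counts without 1 h libraries 1 and 3 were 1 higher and 4 lower in groups 1 to 4, and 2 and 4 in groups 5 to 8.

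In DMSO embryos, over the same interval, 1723 genes rose (10.8%) and 1319 fell (8.27%), together 3042 of 15948 tested (19.1%). The count without DMSO 1 h library 4, singled out after its deviations were seen, was 7627 and is likely too favourable. The programs that led in treated embryos led there too, in values from separate libraries: 47 of 55 sarcomere genes rose with a median of 1.72, 19 of 23 calcium genes with 1.72, 44 of 89 neuronal genes with 0.69, 19 of 43 erythroid genes with 0.50, 19 of 40 endothelial genes with 0.56 and 40 of 99 matrix genes with 0.40. Tailbud genes fell in 17 of 57 cases with a median of −0.40. The retinoic acid list gave 8 rises and 5 falls of 37 under DMSO with a median of 0.12, against 10 and 4 of 38 in treated embryos. Neural crest and EMT genes gave 15 rises and 4 falls of 48 under DMSO, against 9 and 3 of 48 in treated embryos. Of the 1681 genes that rose in DMSO and were tested in both, 1673 had the same sign in treated embryos and 1029 passed there as higher (61.2%). Of 1307 that fell in DMSO, 1284 had the same sign and 453 passed as lower in treated embryos (34.7%). None passed in the opposite direction. Read from the other side, 1482 of the 1881 genes called in treated embryos and tested in both passed in DMSO in the same direction (78.8%). Over all 15761 genes tested in both, 13299 had the same sign (84.4%), so a shared sign was common with or without a call. Pearson's r between their changes was 0.90, which describes genes that share libraries and depth and is not a test.

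**Figure D4:**
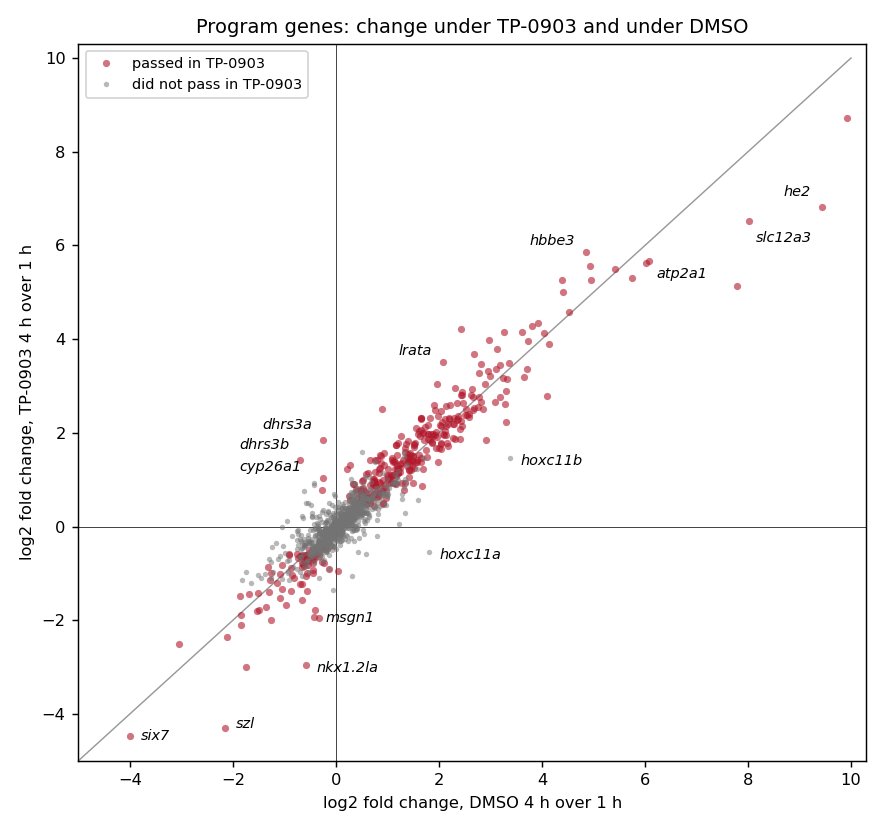
Log2 fold change from 1 h to 4 h under TP-0903 (vertical) against that under DMSO (horizontal) for 1146 genes of the 30 lists tested in both, red where the gene passed under TP-0903 (362 genes) and grey where it did not; the diagonal marks equal change. Of the 362, 357 had the same sign under DMSO, where 1864 of the 1881 called over all genes tested in both did (99.1%). dhrs3b sat left of the zero line and above it, as did dhrs3a and cyp26a1, whose sign under DMSO turned without DMSO 1 h library 4, and nkx1.2la, szl and hoxc11a sat below the diagonal.

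Whether the change differed between treatments was tested by the interaction of treatment and time over all 16 libraries. edgeR called 0 of 16283 genes (0%), with 343 at an unadjusted p under 0.05 and a smallest adjusted p of 0.384. The 1 h libraries that stood apart were part of this fit, and a lack of calls does not show that the changes were equal. DESeq2 called 7: hoxc11a, nkx1.2la, hoxc12a, CU633857.1 and pou5f3 with a lower change under TP-0903, and dhrs3b and ror1 with a higher one. Their values are therefore given as candidates of 1 tool only. nkx1.2la changed by −2.96 under TP-0903 and by −0.58 under DMSO, where it had 19.1, 18.3, 25.6 and 25.4 CPM at 4 h and 32.6, 32.0, 36.74 and 31.1 CPM at 1 h. The difference was −2.37 ± 0.47 (adjusted p = 0.384 in edgeR and 0.00302 in DESeq2). hoxc11a, of the posterior body, had 0.553, 1.04, 3.91 and 2.91 CPM at 4 h and 2.55, 4.19, 2.81 and 3.22 CPM at 1 h under TP-0903, against 14.7, 18.4, 16.5 and 17.0 CPM at 4 h and 4.70, 5.45, 4.57 and 3.89 CPM at 1 h under DMSO (difference −2.35 ± 0.47). Thus hoxc11a was lower under TP-0903 than under DMSO in every 4 h library, while the 1 h ranges overlapped.

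Among the 1881 genes called in treated embryos, 17 had the opposite sign under DMSO, and 10 of these without DMSO 1 h library 4. dhrs3b, hoxb1a and ror1 were among the 10. Without that library, however, the DMSO changes of hoxb1a (−0.07 ± 0.10) and ror1 (−0.16 ± 0.10) were small and did not pass. Under DMSO, cyp26a1 changed by −0.25 with all libraries and 0.10 ± 0.09 without library 4, dhrs3a by −0.25 and 0.24 ± 0.21, and hoxd11a by 0.05 and −0.14 ± 0.13, so their signs rested on that library. dhrs3b kept its sign at −0.34 ± 0.12 (adjusted p = 0.0327 in edgeR), but did not pass with all DMSO libraries (adjusted p = 0.0770 in edgeR). Library 4 was singled out after its deviations were seen, so p-values of the fit without it are likely too favourable. dhrs3b changed by −0.69 under DMSO, at 19.9, 17.2, 17.4 and 19.1 CPM at 4 h against 23, 20.4, 27.2 and 49.9 CPM at 1 h, and the difference between treatments was 2.12 ± 0.41 (adjusted p = 0.384 in edgeR and 0.00302 in DESeq2). For cyp26a1 the DMSO libraries had 49.0, 47.1, 46.3 and 39.96 CPM at 4 h against 44.5, 41.5, 42.2 and 90.6 CPM at 1 h. So the TP-0903 libraries of cyp26a1 were above those of DMSO already at 1 h, and DMSO 1 h library 4 was the highest of its group in cyp26a1, dhrs3a, dhrs3b and hoxb1a. Without that library and TP-0903 1 h libraries 1 and 3, the differences were 1.65 ± 0.40 for dhrs3b, 0.89 ± 0.33 for cyp26a1, 0.95 ± 0.29 for hoxb1a and −1.90 ± 0.33 for nkx1.2la, with edgeR adjusted p-values of 0.591, 0.617, 0.600 and 0.282.

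The changes of Hox genes under each treatment were also set side by side along the body axis. In paralogue groups 1 to 8, the change under TP-0903 lay above that under DMSO in 24 of 25 genes, with an unadjusted interaction p under 0.05 in 8, and in groups 9 to 13 it lay below in 10 of 15, with such a p in 6. These 15 were the genes with enough reads to be tested under TP-0903. A further 4, too low there, were tested in the interaction alone and all lay below, among them hoxc12a at −3.48, which made 14 of 19 with such a p in 9. The median difference was 0.53 in groups 1 to 8 and −0.34 in groups 9 to 13, where all genes gave −0.005. Over all genes, 343 of 16283 had an unadjusted interaction p under 0.05. The share of all genes whose change lay above that under DMSO is not given here. The 15 genes were not alike. Those above were hoxa9a, hoxa9b, hoxb9a, hoxc9a and hoxb10a, with differences of only 0.018 to 0.27. In contrast, hoxa11a, hoxa11b, hoxc11a, hoxc11b, hoxd11a and hoxd12a all lay below, at −0.65 to −2.35. Without the 3 libraries that stood apart, the counts were 24 of 25 and 9 of 15, with medians of 0.36 and −0.35. No single Hox gene passed adjustment in edgeR, and genes of a cluster are neighbours measured in the same libraries, so these counts are a description. hoxb5b changed by 0.75 under TP-0903 and −0.62 under DMSO, and hoxa11b by 0.30 and 1.35.

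**Figure D5:**
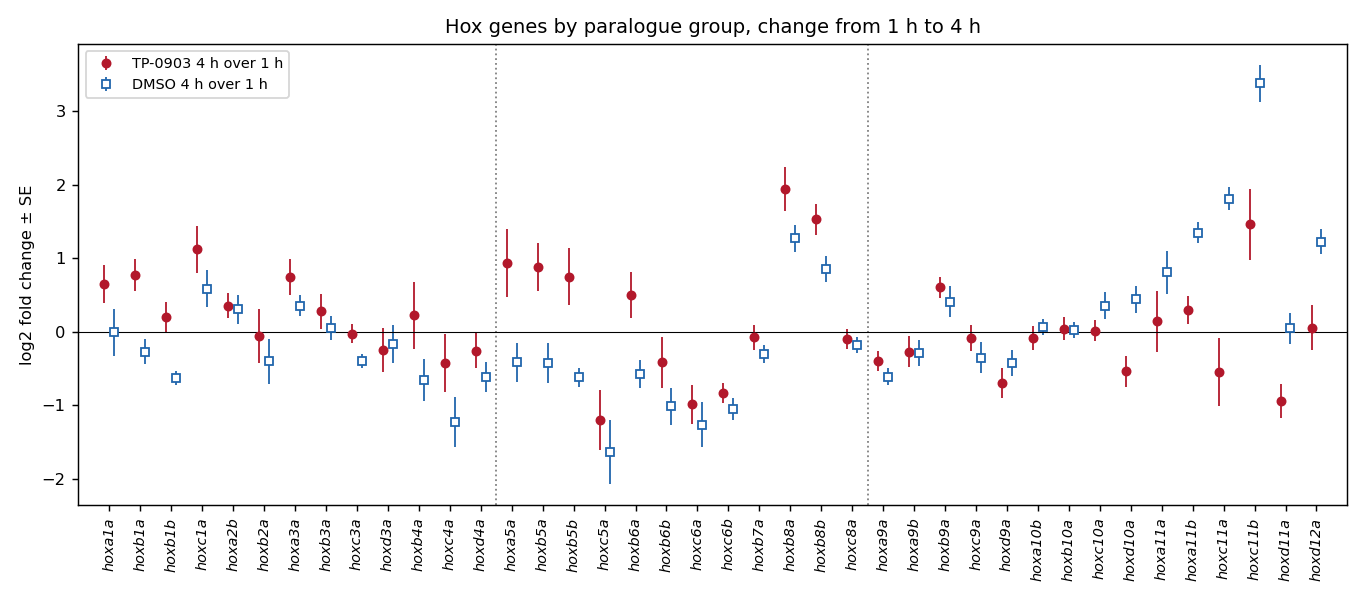
Log2 fold change from 1 h to 4 h (± SE) of 40 Hox genes in order of paralogue group, under TP-0903 (filled red circles) and under DMSO (open blue squares), with dotted lines after groups 4 and 8. Red circles lay above their blue squares in 24 of the 25 genes of groups 1 to 8 and below them in 10 of the 15 genes of groups 9 to 13.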

How the data were processed

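RNA from pools of whole embryos was depleted of ribosomal RNA, made into stranded libraries and sequenced with 50-cycle single reads; the authors aligned reads to zv9 with splice junctions using Novoalign (2.08.03 in the submitters' notes, which also name DESeq2 1.4.5) and counted them per Ensembl gene with USeq. The authors deposited raw read counts per gene, in a table per time point, and FPKM values. The tables' columns of the authors' log2 fold changes and FDR scores were not used. Tables were joined on Ensembl ID (16361 genes in each). Symbols are those of the tables, with 120 of 463 unnamed genes named from a symbol table.

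Counts of TP-0903 4 h and 1 h libraries were normalized together (TMM) and tested with edgeR 4.0.16 (quasi-likelihood, Benjamini-Hochberg) in R 4.3.3, after edgeR's default filter on low counts. DMSO libraries were fitted likewise, and the interaction of treatment and time over all 16. The spread was estimated in each comparison's own fit. CPM use the factors of the 16 libraries. Genes with 3 or fewer reads in a group are given as ratios of summed counts with exact 95% intervals, or against a floor of 3 reads, which cover counting error only. Alternatives were DESeq2 1.42.0, limma 3.58.1 (voom), other scalings and filters, thinning to equal depth, a replicate block, fewer libraries and a fold threshold. The test was tried on counts drawn independently in each library with known changes. Such counts lack the shared deviations of the real libraries, so the trial cannot show how the test behaves under them. The 8 h libraries were not used here. Members and lists were chosen with earlier results of these data known; 1389 list entries matched a gene (1195 distinct) and 343 did not, and 47 matches fell below the filter. Genes named with values were, past the threshold with either group averaging 1 CPM or more, the 10 highest and 10 lowest without overlap between groups, up to 4 of each list by absolute change, the 5 smallest interaction p-values and 10 genes the study follows. The others named, among them ror1, hoxa11b, gsc, myhz2, myl7, efnb2a, gata2a, nkx2.7 and tbx20, were picked after their values were seen. No promoter or other sequence was examined here. A few genes and loci are not reported here.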

Additional observations from a re-analysis of the deposited data

Results flagged for a closer look

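Each of the 129 named genes was checked in TP-0903 4 h and 1 h libraries for a library far from the rest of its group, 227 groups of 4 libraries in all. The other 31 groups, whose highest library was under 1 CPM, were not checked. Of the 227 groups checked, 13 had a library whose gap to the nearest other divided by the group's range exceeded Dixon's 95% critical value. Chance alone flags about 1 in 20 groups. 12 of the 13 lay at 1 h, 9 of them in library 3, and named genes share libraries, so they are not separate events. In 1 h library 3, values were highest for frzb (13.67 CPM, others 4.76 to 6.11), nkx1.2la (39.09, others 14.3 to 17.0), msgn1 (208.1, others 70.9 to 88.0), tmem8c (1.005, others 0.179 to 0.232), jam2a (5.025, others 3.28 to 3.48), foxj1b (18.09, others 6.62 to 8.24) and rbp7a (12.16, others 5.89 to 6.50). In the same library atp1a1a.4 (1.105, others 2.51 to 2.72) and col9a2 (11.46, others 29.1 to 29.4) were lowest. Library 1 of the 1 h group was highest for srl (8.126, others 4.64 to 5.23). Library 4 was lowest for cdh15 (6.981, others 10.22 to 10.55) and hoxb8b (3.759, others 4.87 to 5.03). At 4 h, library 1 was highest for col1a1a (129.1, others 79.7 to 83.0).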

How the results depend on the processing

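For TP-0903 4 h against 1 h, the 1915 calls became 3275 in a fit over all 16 libraries, 6376 without 1 h libraries 1 and 3, 2695 with DESeq2 and 1056 with a log2 change of at least 1, and 1072 to 2800 with single libraries left out. Other scalings, filters, limma and thinning gave 1442 to 2000. The DMSO count of 3042 became 1221 with the fold threshold and 1720 to 7627 with single libraries left out. The interaction gave 0 in edgeR and limma under every alternative run and 7 in DESeq2. With the replicate number as a block, the count was 946 for TP-0903 (767 higher and 179 lower, 939 shared with the 1915) and 1826 for DMSO. Same-numbered 4 h and 1 h libraries did not deviate together (correlations of −0.07, −0.43, −0.27 and 0.11). As 1 component held 79.9% of the variance within the TP-0903 1 h group, these values cannot decide whether the numbers mark a pairing. Between same-numbered TP-0903 and DMSO libraries the correlations were 0.23, 0.076, 0.47 and 0.27 at 4 h and −0.24, 0.62, −0.37 and −0.75 at 1 h. Across numbers, TP-0903 1 h library 3 and DMSO 1 h library 4 gave 0.82. The interaction with the block gave 0 calls. Named genes kept their direction in treated embryos wherever fitted, except snai1b, which did not pass and had 0.08 in the reported fit, −0.018 when thinned and −0.040 to 0.22 with single libraries left out. The twist1a difference between treatments (0.03) lay between −0.10 and 0.16 with single libraries left out. Why these values moved with the libraries left out was not tested. Depth limited genes of few reads at 1 h, for which only ratios of counts or lower bounds could be given.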

Other observations

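Among the largest changes in TP-0903 4 h against 1 h embryos were genes that belong to none of the 30 lists. slc2a1a, a glucose transporter, had 107, 162, 48 and 51 reads at 4 h, against 0, 2, 0 and 1 at 1 h, a depth-adjusted ratio of 140 (exact 95% counting interval 47.4 to 680). fhl2a, a LIM-domain gene, had 10, 22, 14 and 22 reads at 4 h and 1 read in all at 1 h (ratio 77.4, interval 13.4 to 3102). kal1a, an anosmin gene, had 62 reads at 4 h and 1 at 1 h (70.6, interval 12.2 to 2832). olfcs2, an olfactory receptor gene, stood at 0.297 to 2.03 CPM at 4 h against 5.12 to 18.3 CPM at 1 h (−3.57 ± 0.54, adjusted p = 0.00217 in edgeR), and ndp, a Norrin-type ligand, at 0.149 to 0.435 CPM against 1.43 to 3.02 CPM (−2.91 ± 0.45, adjusted p = 0.00250). PSTPIP2 (1 of 2) fell by 2.87 ± 0.38, and the log2 fold change was −2.54 ± 0.49 for APOD (3 of 3) and −2.51 ± 0.44 for PLA2G4C (5 of 5). APOD (3 of 3) and PLA2G4C (5 of 5) fell below the filter without 1 h library 1 or 3 or both, PLA2G4C (5 of 5) also without 1 h library 2, and had no value there.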
